A study of Brassica rapa with 6 samples.

Results

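Levels of circadian clock genes were compared between the leaf and the petiole, the leaf stalk, of Chinese cabbage (Brassica rapa). Members were the genes whose annotated transcript has a description that names a clock protein: APRR, LHY, CCA1, REVEILLE, GIGANTEA, EARLY FLOWERING, ADAGIO, ZEITLUPE, LNK, night light-inducible, PCL1 or cyclic dof factor. This rule found 63 of 45517 genes with a value. A circadian rhythm entry in the KEGG column was held by 36 of them and a circadian term in the Gene Ontology column by 34, and 47 had either. The name match was not perfect. Of the 63, 4 are YUCCA genes, auxin synthesis enzymes whose names contain the letters CCA1, and 1 is PHOTOPERIOD-INDEPENDENT EARLY FLOWERING 1, a chromatin remodelling protein. No member is described as plain CCA1, and 3 genes are described as LHY/CCA1-like 1.

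The plants were wild type and grown in a greenhouse. Total RNA of 3 leaf and 3 petiole samples was depleted of ribosomal RNA and sequenced with strand-specific libraries. The hour of harvest and the day length are not given in the labels. Clock transcripts change through the day, so each value is a level at an unstated time. Whether leaf and petiole were harvested at the same hour is not given either. An effect of hour could not be told apart from one of tissue. Nothing in the labels says that the samples came from separate plants, so the p-values reflect the spread among these samples alone, and that spread may be technical.

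The plant clock is a loop of transcription factors that repress each other in turn through the day. The MYB-like factors LHY and CCA1 peak around dawn, pseudo-response regulators follow in waves from morning to evening, and the evening complex of ELF3, ELF4 and PCL1 (also known as LUX) closes the loop at night. GIGANTEA and the blue light receptors of the ADAGIO family set the stability of clock proteins, and the clock times growth, photosynthesis and flowering. These roles are known mainly from Arabidopsis.

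Linear counts summed to between 111518411 and 132861243 per library. Gene values with a mean count of at least 10 held 68059046 to 72702335 of these in leaf and 92608004 to 104006517 in petiole. Levels below are CPM, the usual count scaled to library size, taken over the counts in those gene values. TMM normalization was used, a scaling that sets the bulk of genes equal. A gene at 0 could be at up to 0.0411 to 0.0432 CPM in a leaf library and 0.0288 to 0.0326 CPM in a petiole library (3 counts, counting error only). Log2 expression correlated between libraries of the same tissue at 0.970 to 0.974 and between tissues at 0.811 to 0.817. Chlorophyll a-b binding genes, markers of green mesophyll, fell in 23 of 24 tested cases. Their summed level was 5927 to 6529 CPM in leaf and 534 to 582 CPM in petiole, and 2 of the 25 genes were at 0 in every petiole library. In bulk tissue, fewer cells of a type and less RNA per cell cannot be told apart.

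Of the 63 members, 47 reached a mean count of 10 across the 6 libraries and were tested. Another 10 were at 0 in every library and 6 had some counts below the minimum. With edgeR's quasi-likelihood test and Benjamini-Hochberg adjustment over all genes, 13 of the 47 were higher in petiole and 22 were lower at an adjusted p below 0.05. These 35 calls are 74.5% of the members tested, and 62.4% of all 27984 tested genes were called. Calls of a rise were 27.7% of the members tested against 31.4% of all genes, and calls of a fall were 46.8% against 31.0%. The median log2 fold change was -0.31 over the members tested and 0.01 over all genes tested. Without the YUCCA genes and PHOTOPERIOD-INDEPENDENT EARLY FLOWERING 1, 13 of 46 were higher and 21 were lower. In 37 of the 47 the libraries of the tissues did not overlap, with petiole above leaf in 14 and leaf above petiole in 23. Over all tested genes 71.2% did not overlap.

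The scaling sets where zero lies. The deposited FPKM values are fragments scaled by transcript length and by a factor for each library, whose basis is not stated here. On the FPKM scale the median log2(FPKM + 1) difference of tested genes was 0.48 in favour of petiole. There 79.5% of limma's calls were rises against 50.3% with edgeR. Of the 35 called members, 27 kept their sign on that scale and 35 kept it relative to its median. Directions given below are therefore relative to the bulk of the genes. The tissues differed in markers of several cell types. Xylem genes rose in 6 of 6 tested cases, from 36.0 to 47.7 CPM summed in leaf to 94.0 to 123 CPM in petiole, with 2 of 9 at 0 in every petiole library. Dividing cell genes rose in 20 of 24, from 75.2 to 91.6 to 180 to 209 CPM. Guard cell genes fell in 2 of 4, from 13.7 to 15.3 to 3.21 to 4.43 CPM, with 2 of 6 at 0 in all libraries of each tissue. Of 36 tested epidermis and wax genes 12 rose and 16 fell, with sums of 1089 to 1115 and 795 to 853 CPM. Of 18 tested phloem genes 5 rose and 8 fell, with sums of 491 to 510 and 303 to 315 CPM. Their part in the differences of every role group below was not tested.

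**Figure D1:**
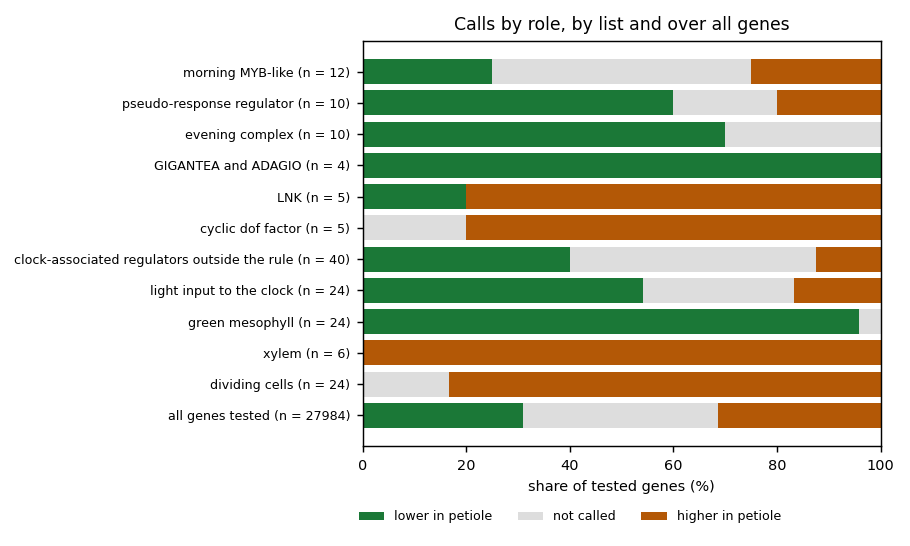
Share of tested genes called higher or lower in petiole by edgeR (percent, adjusted p below 0.05), for each role of the clock genes, for other gene lists and for all 27984 tested genes. The evening complex and the GIGANTEA and ADAGIO group have no call of a rise and the cyclic dof factors none of a fall; on the FPKM scale 2 of 7 and 3 of 4 called members of the first 2 groups had the opposite sign, though not relative to its median.

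The dawn group had 16 members, the MYB-like LHY and REVEILLE genes, of which 12 were tested, with 3 higher and 3 lower. The largest opposite changes were in 2 REVEILLE genes. REVEILLE 7, a MYB-like factor of the clock's output (BraA06g013980.3C, A06 7374657 to 7376037, 5 exons), stood at 21.7, 16.4 and 25.7 CPM in leaf and at 2.21, 2.67 and 3.21 CPM in petiole. Every leaf library was above every petiole library, and the gene fell by 2.98 on the log2 scale (SE 0.21; edgeR adjusted p = 7.38e-06), 7.89-fold. REVEILLE 2 (BraA05g015000.3C, A05 8576225 to 8577774, 5 exons), a close relative, stood at 0.720, 0.849 and 1.05 CPM in leaf. It reached 8.28, 6.0 and 7.30 CPM in petiole, above all leaf libraries. Its log2 fold change was 3.04 (SE 0.24; edgeR adjusted p = 1.53e-05), an 8.22-fold rise. The annotated transcript of this gene held 0, 14 and 0 counts in leaf, and on annotated transcripts alone the value was 2.38 with no call (adjusted p = 0.353). Most of its counts, 92.5% in leaf and 76.4% in petiole on average, were in an assembled transcript that shares a splice junction with the annotated one (A05 8575924 to 8577774, 5 exons).

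LHY, the dawn repressor at the core of the loop, is present as 2 tested copies that went opposite ways. The first (BraA10g000820.3C, A10 418303 to 421107) stood at 12.3, 15.8 and 12.2 CPM in leaf and at 9.13, 7.95 and 5.87 CPM in petiole. Leaf was above petiole throughout, with a log2 change of -0.81 (SE 0.19; edgeR adjusted p = 0.0062). The LHY-like copy (BraA08g035740.3C, A08 22872050 to 22874765) stood at 1.53, 1.47 and 1.18 CPM in leaf and at 2.34, 2.21 and 2.56 CPM in petiole. Here petiole was above leaf, with a log2 change of 0.77 (SE 0.28; edgeR adjusted p = 0.0453). That call was lost when any of the 6 libraries was left out (0.66 without leaf replicate 3 to 0.84 without leaf replicate 1, adjusted p 0.0623 to 0.113), and on annotated transcripts alone the value was -0.07. For the first copy the values were -0.04 on annotated transcripts alone, which hold on average 4.73% of its leaf counts, and -0.09 on the FPKM scale, both without a call. Summed over both copies LHY stood at 14.9 ± 2.14 CPM in leaf and 10.0 ± 1.52 CPM in petiole (SD, n = 3), 67.5% of leaf.

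REVEILLE 6 (BraA10g010970.3C), from the branch of REVEILLE factors that activate evening genes, went from 18.3, 16.9 and 15.1 CPM in leaf to 11.4, 14.3 and 11.1 CPM in petiole. The libraries did not overlap, and the log2 fold change was -0.45 (SE 0.13; edgeR adjusted p = 0.0191), with the opposite sign of 0.20 and no call on the FPKM scale. It had no call without leaf replicate 1 (-0.38), petiole replicate 1 (-0.40) or petiole replicate 3 (-0.38), nor on annotated transcripts alone (-2.20, adjusted p = 0.321). REVEILLE 3 (BraA10g000470.3C) was listed higher in petiole, at 21.2, 23.3 and 16.7 CPM in leaf and 38.2, 32.5 and 33.1 CPM in petiole (log2 fold change 0.76, SE 0.13; edgeR adjusted p = 0.00138). This value is uncertain. The annotated transcript was at 0 in every library, and the single transcript counted (A10 224460 to 229355, 14 exons) runs on through the neighbouring gene BraA10g000480.3C, described as C-terminal binding protein AN, whose own log2 fold change was -0.18 (edgeR adjusted p = 0.126).

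The other 6 tested members of the dawn group were not called. Both REVEILLE 1-like genes, REVEILLE 4-like, REVEILLE 5, REVEILLE 6-like and REVEILLE 8 had log2 fold changes between -0.25 and 0.41, with standard errors from 0.07 for REVEILLE 5 to 1.82 for the REVEILLE 1-like gene on A02. REVEILLE 8, an activator of evening genes in Arabidopsis, stood at 11.1, 10.4 and 10.0 CPM in leaf and at 10.3, 8.24 and 10.0 CPM in petiole, and the libraries overlapped. REVEILLE 5 stood at 25.1 ± 0.867 CPM in leaf and 27.8 ± 0.442 CPM in petiole (SD, n = 3). Petiole was above leaf in all libraries of REVEILLE 5, but the difference did not pass the test (edgeR adjusted p = 0.107). On the FPKM scale 5 of these 6 were called higher by limma: REVEILLE 5, REVEILLE 4-like and the REVEILLE 1-like gene on A03, at 0.85, 0.59 and 0.33, and REVEILLE 6-like and REVEILLE 8, whose sign was the opposite, at 0.66 and 0.50. Of the 3 LHY/CCA1-like 1 genes, 2 were at 0 everywhere and the third reached 0.173 CPM in 1 leaf library. The REVEILLE 7-like gene on A06 was below the minimum and at 0 in petiole.

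**Figure D2:**
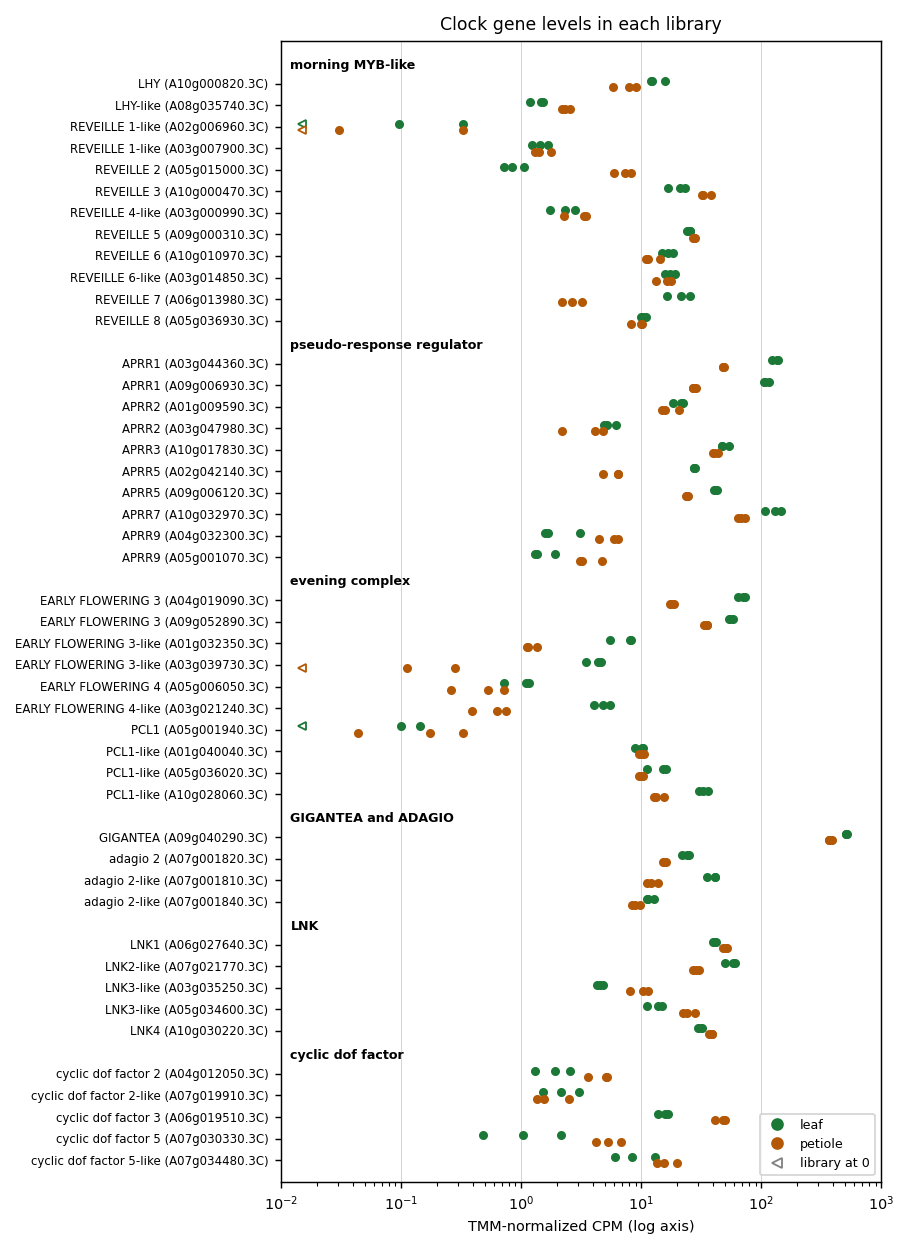
Level of each tested clock gene in each of the 6 libraries (TMM-normalized CPM, log axis; circles are libraries, open triangles are libraries at 0), grouped by role. REVEILLE 2 and REVEILLE 7 lie apart in opposite directions: 0.720 to 1.05 CPM against 6.0 to 8.28 CPM, and 16.4 to 25.7 CPM against 2.21 to 3.21 CPM, leaf against petiole.

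Pseudo-response regulators include the repressors that follow one another through the day. The group had 16 members, placed here by the name APRR alone. Of the 10 tested, 6 fell and 2 rose. The 2 rises were both copies of APRR9, and the falls were copies of APRR1, APRR3, APRR5 and APRR7, of which APRR3 alone had the opposite sign on the FPKM scale. In Arabidopsis APRR9 is the earliest of the wave and APRR1, also known as TOC1, the last.

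APRR1 had 2 tested copies. The copy on A09 (BraA09g006930.3C, A09 3987144 to 3989414, 6 exons) stood at 117, 107 and 106 CPM in leaf and at 27.2, 27.1 and 28.5 CPM in petiole. It fell by 1.99 on the log2 scale (SE 0.06; edgeR adjusted p = 6.2e-08), to 25.1% of leaf. The copy on A03 (BraA03g044360.3C, A03 22407714 to 22409910, 6 exons) stood at 123, 135 and 140 CPM in leaf and at 49.4, 47.8 and 48.4 CPM in petiole. It fell by 1.45 (SE 0.06; edgeR adjusted p = 2.88e-07). The leaf libraries of both copies lay above all petiole libraries, with little spread. Of 2 further genes described as APRR1, both of 4 exons, 1 was at 0 in every library and 1 was below the minimum.

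APRR5 and APRR7 act between morning and evening. APRR5 on A02 (BraA02g042140.3C, A02 29277027 to 29279065) stood at 27.7, 27.4 and 28.1 CPM in leaf and at 6.48, 4.87 and 6.41 CPM in petiole, with a log2 change of -2.23 (SE 0.13; edgeR adjusted p = 2.33e-06). APRR5 on A09 (BraA09g006120.3C, A09 3569149 to 3571621) stood at 42.6, 40.8 and 41.2 CPM in leaf and at 24.4, 23.8 and 24.5 CPM in petiole. Its log2 fold change was -0.78 (SE 0.06; edgeR adjusted p = 1.74e-05), and on the FPKM scale it was -0.02 with no call. The third APRR5 gene, on A08, was below the minimum. APRR7 (BraA10g032970.3C, A10 20365046 to 20367937, 9 exons) stood at 146, 108 and 131 CPM in leaf and at 73.0, 64.7 and 68.0 CPM in petiole, without overlap. Its log2 fold change was -0.91 (SE 0.11; edgeR adjusted p = 0.000142), and -0.11 with no call on the FPKM scale. On annotated transcripts alone it was 1.10 with no call (adjusted p = 0.75), since that transcript held 0, 915 and 0 counts in leaf.

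APRR9, the morning member, went the other way. The copy on A04 (BraA04g032300.3C, A04 21769471 to 21771692) stood at 3.10, 1.68 and 1.59 CPM in leaf and at 6.42, 4.50 and 6.0 CPM in petiole. Its log2 fold change was 1.41 (SE 0.31; edgeR adjusted p = 0.00482), measured on 3 assembled transcripts, since the annotated one was at 0 everywhere. The copy on A05 (BraA05g001070.3C, A05 629849 to 631341) stood at 1.35, 1.31 and 1.93 CPM in leaf and at 3.10, 4.76 and 3.23 CPM in petiole. Petiole was above leaf in both copies, and the second had a log2 change of 1.27 (SE 0.30; edgeR adjusted p = 0.00641). The second copy lost its call with annotated transcripts alone (0.66) and with every transcript under its name (0.61). Both copies together stood at 3.66 ± 0.736 CPM in leaf and 9.33 ± 0.161 CPM in petiole (SD, n = 3), 255% of leaf.

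APRR3 (BraA10g017830.3C), a partner that protects APRR1 protein in Arabidopsis, had the smallest log2 fold change among the called regulators. It stood at 47.5, 54.2 and 46.9 CPM in leaf and at 39.5, 43.7 and 40.8 CPM in petiole, with a log2 change of -0.26 (SE 0.08; edgeR adjusted p = 0.0209). On the FPKM scale it was called in the opposite direction, at 0.45 (limma adjusted p = 0.000998). It had no call without leaf replicate 2 (-0.19), petiole replicate 1 (-0.23) or petiole replicate 3 (-0.25). The 2 APRR2 genes were not called. BraA01g009590.3C had -0.27 (SE 0.15), and -0.43 with a call (edgeR adjusted p = 0.021) without petiole replicate 2. On the FPKM scale it was called higher, at 0.38 (limma adjusted p = 0.0308). BraA03g047980.3C had -0.55 (SE 0.30). Single genes described as APRR3 (a second one), APRR4 and APRR6 were at 0 or below the minimum.

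**Figure D3:**
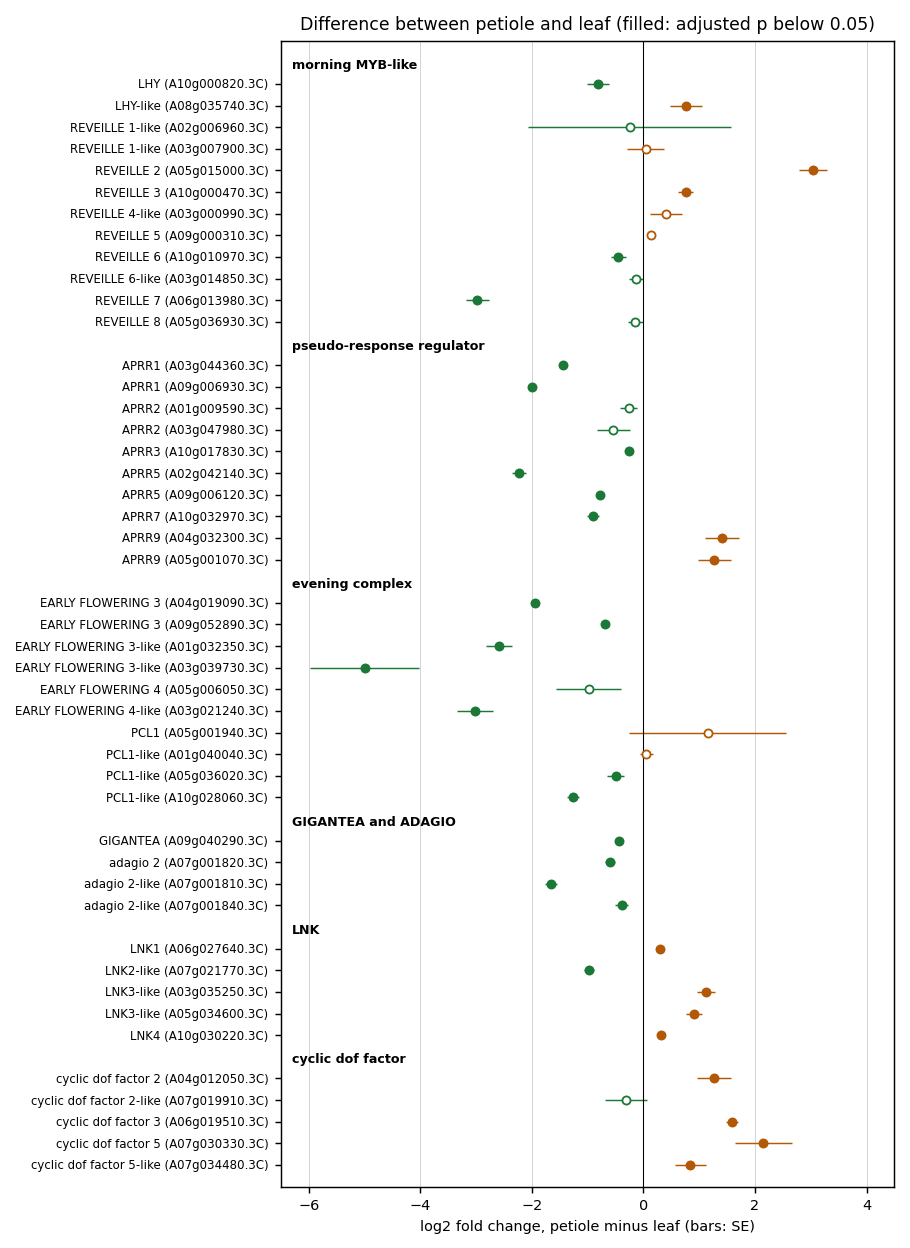
Log2 fold change of each tested clock gene, petiole minus leaf, from edgeR on counts (points; bars are the standard error; filled points have an adjusted p below 0.05), grouped by role. APRR9 stands at 1.41 and 1.27 while APRR1, APRR3, APRR5 and APRR7 lie between -0.26 and -2.23, where APRR3 has the opposite sign on the FPKM scale.

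The evening complex silences clock genes at night. Of its 11 members 10 were tested, with 7 lower and 0 higher in petiole; 2 of the 7, EARLY FLOWERING 3 on A09 and PCL1-like on A05, had the opposite sign on the FPKM scale. At an unadjusted p below 0.05, and with DESeq2, 0 of the 10 were higher as well. On the FPKM scale limma called PCL1-like on A01 higher, at 0.67 (limma adjusted p = 0.000273). EARLY FLOWERING 3 (ELF3) is the scaffold that joins the other subunits. All 4 tested ELF3 genes were lower, and the other ELF3 gene was at 0 in every library. The copy on A04 (BraA04g019090.3C, A04 14426412 to 14429545, 4 exons) stood at 73.2, 70.3 and 64.1 CPM in leaf and at 17.4, 18.7 and 17.7 CPM in petiole. Its log2 fold change was -1.95 (SE 0.07; edgeR adjusted p = 2.3e-07). The copy on A09 (BraA09g052890.3C, A09 38485435 to 38488092, 4 exons) stood at 53.9, 54.9 and 58.9 CPM in leaf and at 35.5, 33.5 and 35.5 CPM in petiole. It had a log2 fold change of -0.68 (edgeR adjusted p = 3.8e-05, SE 0.06) and 0.04 with no call on the FPKM scale.

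The 2 ELF3-like genes were both lower in petiole on each scale. BraA01g032350.3C (A01 22100211 to 22102092) stood at 8.13, 8.20 and 5.55 CPM in leaf and at 1.15, 1.11 and 1.36 CPM in petiole, with a log2 change of -2.59 (SE 0.23; edgeR adjusted p = 3.06e-05). BraA03g039730.3C (A03 19692238 to 19694129) stood at 4.41, 4.68 and 3.50 CPM in leaf and at 0, 0.112 and 0.283 CPM in petiole. It passed the count minimum through its leaf libraries, and its fold change of -5.00 had a standard error of 0.98 (edgeR adjusted p = 0.00251). Its value was -4.40 without petiole replicate 1 and -6.21 without petiole replicate 3, and the call stayed.

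ELF4, the small partner of ELF3, had 2 tested genes, each of 1 exon. ELF4-like (BraA03g021240.3C, A03 10134978 to 10135322) stood at 5.50, 4.83 and 4.05 CPM in leaf and at 0.394, 0.745 and 0.630 CPM in petiole. Leaf was above petiole in every library, with a log2 change of -3.02 (SE 0.32; edgeR adjusted p = 8.22e-05). The second gene, EARLY FLOWERING 4 (BraA05g006050.3C), stood at 0.720, 1.16 and 1.11 CPM in leaf and at 0.721, 0.531 and 0.261 CPM in petiole. These libraries overlapped and the gene was not called (-0.98, SE 0.58).

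PCL1 is the DNA-binding subunit. PCL1-like on A10 (BraA10g028060.3C, A10 18276092 to 18276895, 1 exon) stood at 36.1, 32.6 and 30.2 CPM in leaf and at 15.4, 13.2 and 12.8 CPM in petiole. It fell by 1.26 on the log2 scale (SE 0.11; edgeR adjusted p = 2.33e-05). PCL1-like on A05 (BraA05g036020.3C) stood at 15.1, 16.2 and 11.1 CPM in leaf and at 9.60, 10.1 and 10.5 CPM in petiole, with a log2 change of -0.49 (SE 0.15; edgeR adjusted p = 0.0217). That call was lost without leaf replicate 1 (-0.45), leaf replicate 2 (-0.38), petiole replicate 1 (-0.46) or petiole replicate 2 (-0.50). In the fit on annotated transcripts alone it was lost as well (edgeR adjusted p = 0.0718). The counts of this gene are the same there, and those of other genes in the fit differ. On the FPKM scale the value was 0.24 with no call. PCL1-like on A01 (BraA01g040040.3C) overlapped between tissues, at 10.2, 10.4 and 8.85 CPM in leaf and 10.5, 10.2 and 9.58 CPM in petiole. The log2 fold change was 0.05 (SE 0.12), and 0.67 with a call on the FPKM scale. The gene described as PCL1 itself (BraA05g001940.3C) did not exceed 0.327 CPM in any library and was not called.

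GIGANTEA, a large protein that pairs with blue light receptors and links the clock to flowering, had the highest level per kilobase of any single member in both tissues. It stood at 123 ± 1.16 CPM per kilobase in leaf and at 90.9 ± 3.53 in petiole (SD, n = 3). In CPM, GIGANTEA (BraA09g040290.3C, A09 31442790 to 31447320, 13 exons) was at 509, 506 and 516 in leaf and at 394, 369 and 368 in petiole. Leaf was above petiole in every library, and the log2 fold change was -0.44 (SE 0.04; edgeR adjusted p = 2.31e-05). On the FPKM scale GIGANTEA was called in the opposite direction, at 0.31 (limma adjusted p = 0.000365). One assembled transcript of 14 exons (A09 31442790 to 31448154) held 99.9% of the leaf counts and 99.8% of the petiole counts. The annotated transcript alone, with 11 to 27 counts in leaf and 54 to 90 in petiole, gave 1.24 with no call (edgeR adjusted p = 0.155).

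All 3 genes described as adagio 2 or adagio 2-like, blue light receptors with an F-box that mark clock proteins for breakdown, were called lower; 2 of them, BraA07g001820.3C and BraA07g001840.3C, had the opposite sign on the FPKM scale. They lie within 15389 bases of chromosome A07, with gaps of 1687 and 6194 bases, and reads could be shared between such neighbouring copies, so the split between them is uncertain. BraA07g001810.3C (A07 1349482 to 1351808) stood at 41.0, 35.4 and 41.4 CPM in leaf and at 13.8, 12.2 and 11.3 CPM in petiole, with a log2 change of -1.66 (SE 0.11; edgeR adjusted p = 4.38e-06). BraA07g001820.3C (A07 1353496 to 1356476) stood at 22.0, 25.2 and 24.4 CPM in leaf and at 15.7, 15.3 and 16.3 CPM in petiole, with -0.60 (SE 0.09; edgeR adjusted p = 0.000516) and 0.13 with no call on the FPKM scale. In both genes leaf was above petiole in every library. BraA07g001840.3C (A07 1362671 to 1364870) stood at 11.4, 11.3 and 12.9 CPM in leaf and at 9.86, 8.44 and 8.90 CPM in petiole. The third gene had -0.39 (SE 0.12; edgeR adjusted p = 0.0214). On the FPKM scale it was called in the opposite direction, at 0.27 (limma adjusted p = 0.0443). Its call was lost without leaf replicate 3 (-0.33), petiole replicate 2 (-0.34) or petiole replicate 3 (-0.38) and on annotated transcripts alone (-0.39, adjusted p = 0.0613). In that last fit the counts of this gene are the same, and those of other genes differ. The sum of the 3 genes, which a split between copies does not touch, was 75.0 ± 3.43 CPM in leaf and 37.2 ± 1.83 CPM in petiole (SD, n = 3), 49.7% of leaf.

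LNK proteins are coactivators that bind REVEILLE factors. All 5 LNK genes were tested, with 4 higher and 1 lower in petiole, and all 5 kept their sign on the FPKM scale. LNK2-like (BraA07g021770.3C, A07 17685720 to 17688341) was the fall, from 58.1, 60.7 and 50.4 CPM in leaf to 30.5, 28.8 and 27.1 CPM in petiole. The tissues did not overlap, and the log2 fold change was -0.97 (SE 0.09; edgeR adjusted p = 3.18e-05), with -0.07 and no call on the FPKM scale. On annotated transcripts alone LNK2-like had 0.26 and no call (adjusted p = 0.951). LNK3-like on A03 (BraA03g035250.3C, A03 17398166 to 17399391) stood at 4.55, 4.81 and 4.31 CPM in leaf and at 11.4, 10.3 and 8.07 CPM in petiole. It rose by 1.12 on the log2 scale (SE 0.17; edgeR adjusted p = 0.000555). LNK3-like on A05 (BraA05g034600.3C) stood at 13.7, 14.8 and 11.2 CPM in leaf and at 22.2, 24.2 and 28.3 CPM in petiole, with 0.91 (SE 0.14; edgeR adjusted p = 0.000645). Both LNK3-like genes were above leaf in every petiole library. LNK1 (BraA06g027640.3C) went from 40.9 ± 1.09 to 50.2 ± 2.11 CPM and LNK4 (BraA10g030220.3C) from 30.9 ± 1.10 to 38.4 ± 1.30 CPM (SD, n = 3). Their log2 fold changes were 0.29 (SE 0.06; edgeR adjusted p = 0.00351) and 0.32 (SE 0.07; edgeR adjusted p = 0.00385). On annotated transcripts alone the 4 rises were not called, at 0.07, 1.03, 0.57 and 0.37 in the order given.

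Cyclic dof factors are transcription factors that repress flowering genes and are broken down with the help of GIGANTEA and ADAGIO-type receptors. Of 6 genes 5 were tested, with 4 higher and 0 lower in petiole, and all 4 kept their sign on the FPKM scale. The count of falls was also 0 at an unadjusted p below 0.05 and with DESeq2. With every transcript under the name summed, cyclic dof factor 5-like was called lower (-0.36, edgeR adjusted p = 0.0107). Cyclic dof factor 3 (BraA06g019510.3C, A06 11167593 to 11169372, 2 exons) stood at 16.8, 15.7 and 13.9 CPM in leaf and at 50.1, 48.3 and 41.7 CPM in petiole. Every petiole library lay above every leaf library, and the log2 fold change was 1.59 (SE 0.11; edgeR adjusted p = 5.06e-06), 3.01-fold. Cyclic dof factor 5 (BraA07g030330.3C, A07 22191929 to 22193642) stood at 2.15, 1.04 and 0.484 CPM in leaf and at 4.25, 6.78 and 5.26 CPM in petiole. The leaf libraries of this gene were spread widely, and the log2 change was 2.15 (SE 0.51; edgeR adjusted p = 0.00654). With single libraries left out it ranged from 1.76 to 2.83, the latter without leaf replicate 1. The call stayed in each of these fits (edgeR adjusted p of 0.00131 to 0.0254). Cyclic dof factor 2 (BraA04g012050.3C) stood at 2.58, 1.31 and 1.91 CPM in leaf and at 5.19, 5.09 and 3.60 CPM in petiole, with 1.26 (SE 0.31; edgeR adjusted p = 0.00764).

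Cyclic dof factor 5-like (BraA07g034480.3C, A07 24486115 to 24487371) was called higher with more reservations. It stood at 6.02, 8.36 and 13.1 CPM in leaf and at 15.6, 13.5 and 20.1 CPM in petiole, with 0.84 (SE 0.28; edgeR adjusted p = 0.03). Its call was lost without leaf replicate 1 (0.61), leaf replicate 2 (0.78), petiole replicate 1 (0.88) or petiole replicate 3 (0.67) and on annotated transcripts alone (0.84, adjusted p = 0.0901). In that last fit the counts of this gene are the same, and those of other genes differ. A single-exon transcript over the same place, left out of gene values, held 1857, 1796 and 1724 counts in leaf and 1446, 1458 and 341 counts in petiole. With every transcript under the name summed, the value was -0.36 with a call of a fall (edgeR adjusted p = 0.0107). Cyclic dof factor 2-like overlapped between tissues and was not called (-0.31, SE 0.38), and cyclic dof factor 4-like was at 0 in every library.

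Of the name matches that are no clock protein, PHOTOPERIOD-INDEPENDENT EARLY FLOWERING 1 (BraA05g034260.3C) was called lower. It stood at 113, 106 and 105 CPM in leaf and at 52.6, 79.9 and 77.3 CPM in petiole, with -0.63 (SE 0.15; edgeR adjusted p = 0.00606) and 0.12 with no call on the FPKM scale. Of the YUCCA genes 3 were at 0 in every library and 1 was below the minimum.

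Brassica rapa carries several copies of many Arabidopsis genes, and levels were also summed over the copies of a name. Summed over copies and set per kilobase, APRR1 and GIGANTEA were the most abundant names in leaf, at 123 ± 1.46 and 123 ± 1.16 CPM per kilobase, which do not differ beyond their spread. ELF3 came next with 72.5 ± 2.43 and PCL1 with 67.5 ± 7.02, which also lie within their spread, then APRR7 with 49.1 ± 6.54 and adagio 2 with 40.8 ± 1.87 CPM per kilobase (SD, n = 3). In petiole the order differed. GIGANTEA stood alone at 90.9 ± 3.53, and PCL1 with 39.4 ± 1.87, APRR1 with 37.4 ± 0.924, LNK4 with 37.1 ± 1.53 and cyclic dof factor 3 with 36.4 ± 3.44 CPM per kilobase lay close together. At the low end of the names with a tested gene, REVEILLE 2 stood at 0.663 ± 0.123 CPM per kilobase in leaf.

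**Figure D4:**
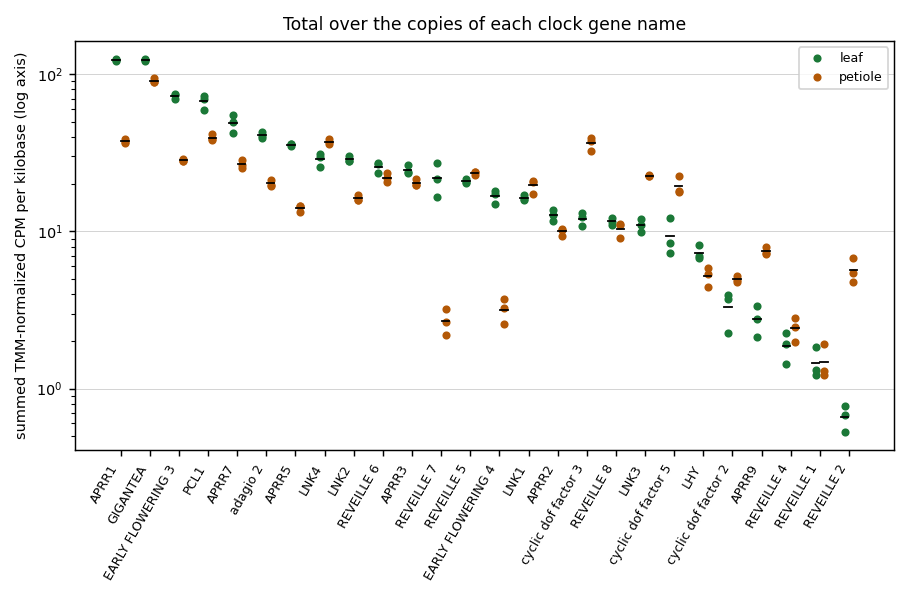
Summed level of all copies of each clock gene name in each library (TMM-normalized CPM per kilobase, log axis), ordered by the leaf mean; circles are libraries and bars are means. REVEILLE 3 is left out because its counts come from a transcript that runs through another gene. APRR1 falls from 123 to 37.4 while GIGANTEA goes from 123 to 90.9 CPM per kilobase.

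Within a name, the share of counts held by each copy depends on no scaling between libraries. The APRR5 copy on A09 held 59.9% ± 0.614 of the APRR5 counts in leaf and 80.4% ± 2.24 in petiole. Of the ELF3 counts, the copy on A04 held 50.6% ± 1.97 in leaf and 33.2% ± 1.63 in petiole, and the copy on A09 held 41.0% ± 3.20 and 64.4% ± 1.54 (SD, n = 3). Per kilobase these copies stood at 35.0 ± 2.67 and 30.1 ± 1.52 CPM in leaf and at 9.11 ± 0.436 and 18.4 ± 0.744 CPM in petiole, so the one on A04 was above in leaf and the one on A09 in petiole. The APRR1 copy on A03 went from 54.7% ± 2.94 to 63.6% ± 0.867. PCL1-like on A10 went from 57.9% ± 2.53 to 40.4% ± 2.25, and LHY on A10 from 90.6% ± 1.39 to 75.8% ± 5.44. Adagio 2-like BraA07g001810.3C went from 52.3% ± 2.96 to 33.3% ± 2.15, with the reservation on shared reads. In each of these 7 the leaf and petiole libraries did not overlap. How reads shared between copies were assigned is not stated for any of these names. Of the 19 pairs of copies of a clock gene name that were compared, the ratio did not overlap between tissues in 15. These pairs come from 13 names, so some share a copy and are not independent. Among all tested genes taken singly, 71.2% did not overlap. Pairs of copies of other genes were not looked at. The shares were looked at after the data were seen and are given without a test; with 3 libraries against 3 an exact permutation test cannot give a two-sided p below 0.1. For REVEILLE 1, APRR2, APRR9, LNK3 and cyclic dof factor 5 the shares overlapped between tissues.

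**Figure D5:**
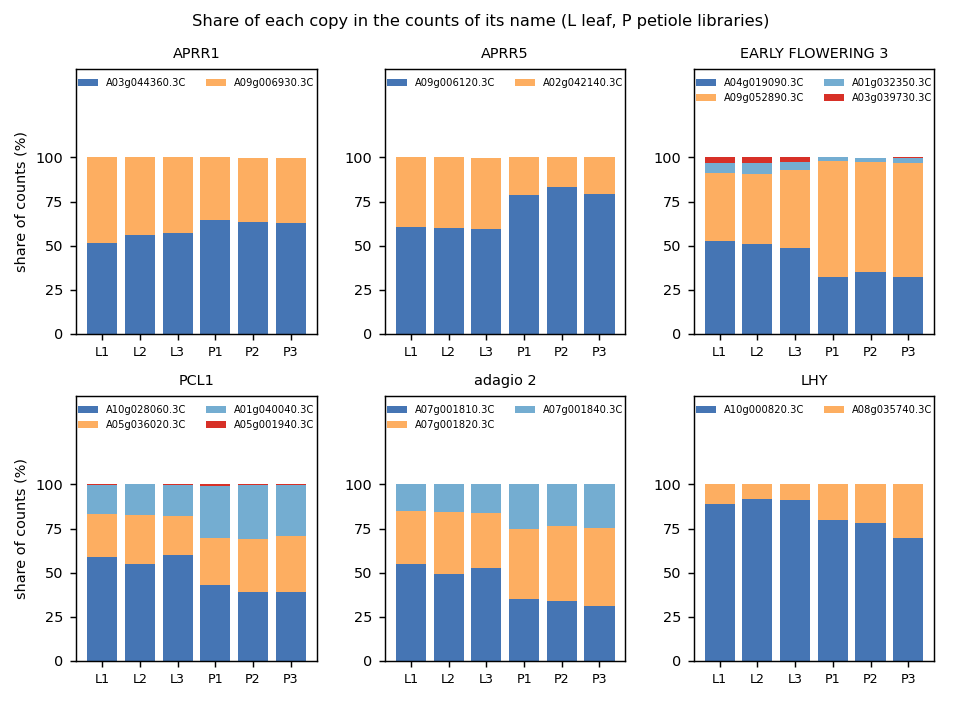
Share of each copy in the counts of its name (percent) in the leaf (L) and petiole (P) libraries for 6 names with several copies. The APRR5 copy on A09 makes up 59.9% on average in leaf and 80.4% in petiole, and the ELF3 copies on A04 and A09 change places.

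The members had 127 transcript rows, 63 that match the annotation and 59 that share a splice junction with it, which were summed into gene values. The other 5 rows were left out. Of 100 isoforms tested, edgeR called 9 higher and 16 lower in petiole, 25% of those tested against 29.5% of all 52982 isoforms. The 52982 include transcripts of every class, while the 100 are of the classes summed into gene values. Of the 25 members with at least 2 tested isoforms, 0 had one isoform called higher and another called lower by edgeR, also 0 at an unadjusted p below 0.05, and 1 by DESeq2. An LHY isoform of 10 exons (A10 417681 to 421107) had 689, 475 and 646 counts in leaf and 0, 0 and 0 in petiole, and was called lower (edgeR adjusted p = 0.00113). It passed the count minimum through its leaf libraries alone. Other LHY isoforms ranged from 2 to 504 counts in leaf and from 0 to 918 in petiole without a call. The split between isoforms was unstable in places, LHY included, so the fall of that single LHY isoform is uncertain. The 2 assembled APRR7 transcripts, of 9 exons each, held 10151, 4 and 560 and then 0, 6983 and 8673 counts in the leaf libraries. Their sum with the annotated transcript was 10151, 7902 and 9233 counts.

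Circular RNAs, closed molecules formed by back-splicing, were listed in a separate table, where 0 of 886 had a member as host gene or overlapped one. With 3216 to 4227 back-spliced reads per library, a count of 0 allows a share of up to 0.071% to 0.0933% in a library (counting error only).

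Genes around the clock were read from lists by description. Of 45 clock-associated regulators outside the rule, such as casein kinase II subunits that phosphorylate LHY and CCA1 in Arabidopsis, 40 were tested, with 5 higher and 16 lower and a median log2 fold change of -0.11. The called one with the largest change was the histone demethylase JMJ30 (BraA05g026320.3C), at 7.38, 7.97 and 9.24 CPM in leaf and 1.67, 1.71 and 1.65 CPM in petiole (-2.29, SE 0.18; edgeR adjusted p = 1.16e-05). Of 30 genes for light input, phytochromes, cryptochromes and their signalling partners, 24 were tested, with 4 higher and 13 lower and a median of -0.25. Over all tested genes 62.4% were called, 31.4% higher and 31.0% lower, and neither list was tested against these shares. A cryptochrome-2 gene, a blue light receptor (BraA10g002940.3C), fell most, from 27.8, 25.7 and 18.0 CPM in leaf to 1.46, 0.857 and 0.532 CPM in petiole (-4.64, SE 0.37; edgeR adjusted p = 1.41e-05). The 4 genes listed as clock outputs, of the FLOWERING LOCUS T and CONSTANS type, were at 0 in every library of both tissues. This list came from a search by name that left out CONSTANS-LIKE genes, so it does not cover clock outputs as a whole.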

How the data were processed

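Linear transcripts were measured in 3 leaf and 3 petiole libraries, grouped by the tissue in their titles. Per the file headers, the authors deposited estimated counts and FPKM values per transcript, and a table of circular RNAs with back-spliced read counts. HISAT2, StringTie and TopHat are named without versions in the submitters' processing notes. The genome build is not given in the sources used here. The deposited estimated counts were whole numbers. A count of 0 was listed as 0.0001 in the deposited FPKM columns and set to 0. The authors' scaled signal of circular RNAs was not used.

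Gene values were sums of counts over transcripts that match the annotation, share a splice junction with an annotated transcript or are contained in one, so transcripts of other classes were left out. Features (genes, or isoforms in a separate fit) were kept at a mean count of 10 or more and tested with edgeR 4.0.16 (quasi-likelihood F test with TMM; fold changes are petiole minus leaf; p-values were adjusted over all features by Benjamini-Hochberg and called below 0.05) in R 4.3.3. Standard errors were the absolute log2 fold change divided by the square root of the F statistic. The fit was tested on simulated data. Alternatives were DESeq2 1.42.0, limma 3.58.1 on log2(FPKM + 1) and log2(FPKM + 0.1), other filters, scalings and gene values, and leaving out libraries. Every tested member could be named: in each role the most abundant one and the largest changes are given by library. Members, lists and tests were chosen with earlier results of these data known. Counts of libraries of the same tissue differed by more than sampling noise (chi-square of 31.9 to 80.5 per gene), so each library was counted as 1 sample.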

Additional observations from a re-analysis of the deposited data

How the results depend on the processing

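Of the 35 called clock genes, 15 (5 higher, 10 lower) kept direction and call under each of 15 alternatives that tested them, and 29 kept the call without each library in turn. The 5 rises were REVEILLE 3, whose value is uncertain, APRR9 on A04 and cyclic dof factors 2, 3 and 5. The annotated transcripts of REVEILLE 3 and this APRR9 copy were at 0 in every library. The fit on annotated transcripts alone therefore did not test them. The counts of 13 higher and 22 lower became 3 and 13 on annotated transcripts alone and 23 and 10 with limma on both FPKM scales. Over all genes, 5065 and 4888 were called on annotated transcripts alone, 16497 and 4257 with limma on log2(FPKM + 1), and 16560 and 4269 on log2(FPKM + 0.1). Isoforms called higher, 9 with edgeR, were 18 with DESeq2, 23 and 25 with limma and 4 to 7 without single libraries, and those called lower, 16 with edgeR, were 27 with DESeq2. The FPKM scales shift the median of all genes by 0.47 and 0.71; other causes were not tested.

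Annotated transcripts alone reversed LHY-like (-0.069), REVEILLE 4-like (-0.016), REVEILLE 6-like (0.26), REVEILLE 8 (2.74), APRR7 (1.10), GIGANTEA (1.24) and LNK2-like (0.26), each without a call. Every transcript under the name reversed cyclic dof factor 5-like (-0.36, with a call). On log2(FPKM + 1) and log2(FPKM + 0.1) the reversed values were 0.026 and 0.087 for REVEILLE 1-like on A02, 0.20 and 0.23 for REVEILLE 6, 0.66 and 0.75 for REVEILLE 6-like, 0.50 and 0.58 for REVEILLE 8, 0.38 and 0.47 for APRR2 on A01, 0.12 and 0.16 for APRR2 on A03, and 0.45 and 0.48 for APRR3. They were 0.040 and 0.043 for EARLY FLOWERING 3 on A09, 0.24 and 0.27 for PCL1-like on A05, 0.31 and 0.32 for GIGANTEA, and 0.13 and 0.15 for adagio 2. The remaining ones were 0.27 and 0.35 for adagio 2-like BraA07g001840.3C, 0.20 and 0.40 for cyclic dof factor 2-like, and 0.12 and 0.14 for PHOTOPERIOD-INDEPENDENT EARLY FLOWERING 1. Of these 14, limma called GIGANTEA, APRR3, adagio 2-like BraA07g001840.3C, REVEILLE 6-like, REVEILLE 8 and APRR2 on A01 higher on both scales. Leaving out single libraries moved 3 genes without a call across 0: REVEILLE 1-like on A02 (-3.08 to 1.29) and on A03 (-0.10 to 0.16) and PCL1-like on A01 (-0.025 to 0.089).

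Leaf and petiole libraries share replicate numbers, but same-numbered libraries did not deviate together (correlations of -0.00042, 0.0059 and -0.0034 over genes). With the replicate number as a block, 12 clock genes were higher and 22 lower, LHY-like losing its call (0.77, adjusted p = 0.111), and 5 isoforms were higher and 13 lower. Depth limits REVEILLE 1-like on A02, PCL1 and the ELF3-like gene on A03 most, with standard errors of 1.82, 1.41 and 0.98. With 3 libraries a tissue, small differences may pass undetected.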
